A study of Mus musculus with 4 samples.

Results

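CpG methylation was examined at 9 genes through which a cell recognises foreign or displaced nucleic acid: the RNA sensors Ifih1, Ddx58 and Tlr3, the DNA sensor Mb21d1, the adaptors Mavs and Tmem173, the transcription factors Irf3 and Irf7, and Isg15, a gene switched on at the end of the pathway. They were chosen by name, because loss of DNA methyltransferase 1 (DNMT1) is known in other cells to switch on this pathway. Earlier results of these data were already known when the genes were chosen. The genes were found in the data by Ensembl gene identifier together with any CpG island or island shore overlapping the gene. All 9 had at least 1 listed region, 36 in total, among 106689 regions of 7 classes with a level in every library (promoters, 5′ UTRs, exons, introns, 3′ UTRs, islands and shores). Across the series, 27858 genes had a promoter, UTR, exon or intron entry in all 4 libraries.

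The libraries were made from C3H10T1/2, an embryonic mouse line of multipotent mesenchymal cells. The cells received control siRNA (NC) or DNMT1 siRNA (siDNMT1) for 48 h and were then left uninduced or cultured for 3 days in osteogenic medium with ascorbic acid, β-glycerophosphate and dexamethasone (OB). For uninduced cells no culture time beyond the 48 h is given. Induction therefore cannot be told apart from days in culture or time since transfection. Each of these conditions, NC, siDNMT1, NC OB and siDNMT1 OB, was 1 bisulfite library from 1 cell line, so there was no replicate error, no difference below was tested, and the values describe these libraries. Every library serves in more than 1 of the comparisons. The study calls the assay reduced representation bisulfite sequencing, whereas the protocol describes sonicated DNA and names no restriction enzyme. Whether DNMT1 was depleted could not be checked from methylation, and neither could the identity of the cells from expressed markers. The files hold only methylation levels, the fraction of methylated CpG cytosines in a region from 0 to 1, so how many reads support a level is unknown. Between 108116 and 109582 regions of the 7 classes were listed per library, fewest for siDNMT1 OB.

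Cells carry receptors that bind double-stranded RNA or stray DNA and pass the signal through adaptor proteins at mitochondria or the endoplasmic reticulum to kinases, which phosphorylate interferon regulatory factors. These factors turn on type I interferons, and secreted interferons turn on a wide set of antiviral genes in the same and neighbouring cells. DNMT1 copies CpG methylation onto new DNA strands, and its loss can let silenced endogenous retroviruses be transcribed into RNA that these receptors bind, a response known as viral mimicry.

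The RefSeq promoters of the genes differed in CpG content. The 250 bases before the annotated start are shown 5′ to 3′ for 4 genes that span this range and the roles of sensor, adaptor and target, with each CpG in capitals (RefSeq sequence, GRCm38.p6).
Ifih1 (chr2:62646256-62646505, minus strand): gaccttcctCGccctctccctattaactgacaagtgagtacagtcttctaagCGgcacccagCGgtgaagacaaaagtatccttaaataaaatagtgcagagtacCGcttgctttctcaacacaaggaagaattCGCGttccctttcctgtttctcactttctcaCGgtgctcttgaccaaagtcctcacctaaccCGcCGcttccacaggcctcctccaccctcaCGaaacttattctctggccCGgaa
Mb21d1 (chr9:78443238-78443487, minus strand): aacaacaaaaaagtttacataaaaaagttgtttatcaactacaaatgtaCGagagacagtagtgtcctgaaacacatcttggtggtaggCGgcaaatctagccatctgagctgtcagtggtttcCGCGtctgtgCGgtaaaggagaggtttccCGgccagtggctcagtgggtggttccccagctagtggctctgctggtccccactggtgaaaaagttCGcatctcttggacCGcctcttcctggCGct
Mavs (chr2:131233813-131234062, plus strand): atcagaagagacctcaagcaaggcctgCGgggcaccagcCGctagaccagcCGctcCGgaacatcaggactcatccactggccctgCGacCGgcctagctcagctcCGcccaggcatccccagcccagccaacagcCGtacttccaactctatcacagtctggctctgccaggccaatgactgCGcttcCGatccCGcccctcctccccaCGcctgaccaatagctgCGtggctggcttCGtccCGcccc
Isg15 (chr4:156200819-156201068, minus strand): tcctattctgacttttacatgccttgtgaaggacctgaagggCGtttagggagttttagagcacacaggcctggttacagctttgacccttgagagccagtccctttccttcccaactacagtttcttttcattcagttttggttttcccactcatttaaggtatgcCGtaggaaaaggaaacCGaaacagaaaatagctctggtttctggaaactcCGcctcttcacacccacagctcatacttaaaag

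The Ifih1 stretch held 11 CpGs, that of Mb21d1 9, that of Mavs 15 and that of Isg15 4. Over the longer RefSeq window from 250 bases before to 50 after the start, matched for 8 of the 9 genes, the CpG count was 19 at Mavs, 18 at Irf3, 16 at Mb21d1, 15 at Ddx58, 14 at Ifih1, 10 at Tlr3, 7 at Irf7 and 6 at Isg15. The median over 32851 RefSeq promoters was 7, with quartiles of 3 and 20. Irf7 and Isg15 therefore sat at or below the median and the other 6 above it. The sequence GAAANNGAAA, the core of the interferon-stimulated response element bound by interferon regulatory and STAT factors, was searched on both strands and occurred in 3.44% of these promoters. Isg15 held 3 overlapping matches beginning 78, 72 and 66 bases before the start, visible as the run of gaaa repeats around the third capitalised CpG. Ifih1 and Ddx58 held 1 match each, 32 and 2 bases after the start, and the other 5 windows held none. GGGCGG, the GC box bound by Sp1 family factors, occurred on either strand in 35.7% of promoters, with 3 matches at Mavs, 3 at Ddx58, 1 at Irf3 and 1 at Tlr3. A match describes the letters only. At Tlr3 the RefSeq start used here lies inside the GENCODE gene.

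Ifih1 encodes MDA5, the cytosolic receptor for long double-stranded RNA (ENSMUSG00000026896, minus strand, chr2:62595798-62646255 in GRCm38 with GENCODE vM21). Its promoter, the 2 kb before the start, had a methylation level of 0.201 in NC, 0.195 in siDNMT1, 0.132 in NC OB and 0.119 in siDNMT1 OB. Its island, which ends inside the gene close to the start (chr2:62645964-62646167), had levels of 0.282, 0.267, 0.199 and 0.172 in the same order. The 2 libraries of each induction state lay close together and the OB libraries lay below both uninduced ones. The 5′ UTR levels were 0.249, 0.243, 0.189 and 0.160, and the exon levels 0.251, 0.242, 0.189 and 0.161. The shore before the gene had the lowest levels, 0.121, 0.128, 0.102 and 0.0845. In all 5 regions both OB libraries were below both uninduced libraries, by -0.0826 at the island between the NC libraries and by -0.0943 between the siDNMT1 libraries. The siDNMT1 minus NC differences were smaller. They ran from -0.0154 to 0.00783 before induction and lay between -0.0286 and -0.0130 after it. Regions of a gene can share CpGs, so the 5 are not 5 independent readings. The NC promoter level was at or above 50.7% of promoters, while the NC island level was at or above 73.4% of islands.

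Ddx58 encodes RIG-I, the cytosolic receptor for short RNA with a 5′ triphosphate (ENSMUSG00000040296, minus strand, chr4:40203773-40239828). Only its exons and introns were listed. Exon levels were 0.842 in NC, 0.833 in siDNMT1, 0.867 in NC OB and 0.819 in siDNMT1 OB, and intron levels were 0.797, 0.787, 0.802 and 0.779. Both were high in every library, at or above 96.9% of exon entries and 97.4% of intron entries in NC. The siDNMT1 level was below NC both before and after induction in these 2 regions, at most by -0.0488 in OB exons. No promoter level of Ddx58 was listed, and whether the exon entry covers the response element match just after the start is unknown.

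Tlr3, the endosomal receptor for double-stranded RNA (ENSMUSG00000031639, minus strand, chr8:45395665-45411080), had levels of at most 0.204, lowest in the OB libraries. In NC its 5′ UTR was at or above 71.6% of 5′ UTRs and its promoter at or above 50.9% of promoters. Its exons were at or above 33.4% of exon entries and its introns at or above 18.6% of intron entries. Its promoter was at 0.204 in NC, 0.184 in siDNMT1, 0.160 in NC OB and 0.155 in siDNMT1 OB. Its exons were at 0.153, 0.122, 0.103 and 0.102, its 5′ UTR at 0.148, 0.124, 0.102 and 0.102, and its introns at 0.116, 0.0939, 0.0701 and 0.0741. All 4 regions were lower in both OB libraries than in either uninduced library. In uninduced cells siDNMT1 was below NC in all 4, by -0.0198 to -0.0313, whereas in OB cells the differences lay between -0.00438 and 0.00398.

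Mb21d1 encodes cGAS, the enzyme that makes the messenger cGAMP on binding cytosolic DNA (ENSMUSG00000032344, minus strand, chr9:78430526-78443237). Its levels were at most 0.124 in every library. In NC the 5′ UTR was at or above 69.5% of 5′ UTRs and the island at or above 61.3% of islands. The promoter was at or above 40.9% of promoters and the exons at or above 29.5% of exon entries. The island over its start (chr9:78442518-78443268) was at 0.103 in NC, 0.101 in siDNMT1, 0.0578 in NC OB and 0.0801 in siDNMT1 OB. The promoter was at 0.0985, 0.0901, 0.0487 and 0.101, the 5′ UTR at 0.121, 0.124, 0.0608 and 0.0936, and the exons at 0.104, 0.108, 0.0630 and 0.0721. In these 4 regions NC OB was the lowest library. At the promoter the siDNMT1 minus NC difference was -0.00840 in uninduced cells and 0.0520 in OB cells. The introns and the shore within the gene (chr9:78440517-78442516) carried the same 4 levels, 0.0567, 0.0626, 0.0640 and 0.0514, and both are kept in the counts below. A second shore, just before the gene and outside the chosen regions, was at 0.0754, 0.103, 0.0694 and 0.121.

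Mavs, the mitochondrial adaptor through which MDA5 and RIG-I signal (ENSMUSG00000037523, plus strand, chr2:131234063-131248025), was lower over its start and introns than before the start and in its exons and 3′ UTR. In NC its 5′ UTR was at or above 71.1% of 5′ UTRs and its island at or above 66.9% of islands. Its introns were at or above 27.7% of intron entries. The island over its start (chr2:131233996-131234508) was at 0.178 in NC, 0.167 in siDNMT1, 0.170 in NC OB and 0.173 in siDNMT1 OB, and the 5′ UTR at 0.142, 0.122, 0.104 and 0.128. The promoter was far higher, at 0.664, 0.675, 0.685 and 0.656. Of the 35 CpGs in the 2 kb before the start, 7 fall inside the island and the rest before it. Neither the island nor the promoter separated the libraries by siRNA or by induction. Exon levels were 0.650, 0.612, 0.566 and 0.593, the 3′ UTR was at 0.815, 0.780, 0.776 and 0.761, the introns at 0.230, 0.211, 0.206 and 0.195, and the shore after the island (chr2:131234509-131236509) at 0.219, 0.194, 0.198 and 0.172. In uninduced cells 6 of the 7 regions were below NC with siDNMT1, the exons by -0.0372, and in OB cells 4 of 7. The shore before the island, not among the chosen regions, was at 0.434, 0.385, 0.570 and 0.478.

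Tmem173 encodes STING, the endoplasmic reticulum adaptor that cGAMP activates (ENSMUSG00000024349, minus strand, chr18:35733679-35740554). Its promoter was its only listed region, at 0.579 in NC, 0.677 in siDNMT1, 0.541 in NC OB and 0.569 in siDNMT1 OB. The siDNMT1 library stood above the other 3, and the range of 0.137 over the libraries was the widest of the 36 regions. The uninduced siDNMT1 minus NC difference was 0.0985, just under 0.1, and the siDNMT1 OB minus siDNMT1 difference was -0.109. In OB cells siDNMT1 minus NC was 0.0281.

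Irf3, the transcription factor activated downstream of MAVS and STING (ENSMUSG00000003184, plus strand, chr7:44997648-45002848), held the member regions that differed most by siRNA in OB cells. Its promoter was at 0.185 in NC, 0.167 in siDNMT1, 0.168 in NC OB and 0.282 in siDNMT1 OB. Its exons were at 0.178, 0.163, 0.163 and 0.279, and its introns at 0.323, 0.280, 0.287 and 0.393. In all 3, siDNMT1 OB stood above the other libraries, by 0.114, 0.116 and 0.107 over NC OB. Its 5′ UTR was at 0.0126, 0.00887, 0.0105 and 0.0105, and the island over its start (chr7:44997469-44997991) at 0.0132, 0.00943, 0.0111 and 0.0100, so the start itself was almost unmethylated in every library. In uninduced cells all 5 regions were lower with siDNMT1, by -0.00377 to -0.0436. The increase from the uninduced to the OB difference was 0.131 for promoter and exons and 0.150 for introns, and was not tested.

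The Irf3 entries overlap one another and another gene. GENCODE lists 13 Irf3 transcripts with 13 starts, and the 2 kb before these starts together hold 167 CpGs, among them 83 of the 101 exonic CpGs and all 40 CpGs of the island. How the authors pooled transcripts is not given in the sources used here, so how many CpGs the promoter and exon entries share was not tested. Bcl2l12, which encodes a BCL2-related protein, lies on the other strand (chr7:44991222-44998712) and shares 1065 bases with Irf3. The 2 kb before its start lie wholly within Irf3, and this promoter was also highest in siDNMT1 OB, at 0.0411, 0.0347, 0.0362 and 0.0614. In turn, all 2000 bases before the Irf3 start lie within Bcl2l12. The Bcl2l12 introns were at 0.0132, 0.0722, 0.0111 and 0.0100, lowest in siDNMT1 OB and highest in siDNMT1. In NC, NC OB and siDNMT1 OB these levels equal those of the Irf3 island, so there they are not a separate reading. The exons of Bcl2l12 were at 0.831, 0.878, 0.858 and 0.863 and those of Scaf1, the next gene (chr7:45002948-45016363), at 0.845, 0.844, 0.854 and 0.825. The Bcl2l12 exons did not stand apart in siDNMT1 OB, whereas the Scaf1 exons were lowest there, by -0.0289 against NC OB. The Bcl2l12 exon levels equal those of its 3′ UTR in every library. In NC, NC OB and siDNMT1 OB they also equal the introns of Gm15545 (chr7:44986900-44994597), which shares no base with Irf3. Whether this exon entry holds any CpG of the stretch shared with Irf3 is unknown. The 3 Irf3 regions rest on that 1 library in both comparisons that include it. Of promoters, exons and introns with a mean level of 0.1 to 0.4, 1.01% were higher by at least 0.1 with siDNMT1 in OB cells, and of the 8 among the 9 genes 3 were, all of Irf3. This range of levels was chosen after the values were seen.

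**Figure D1:**
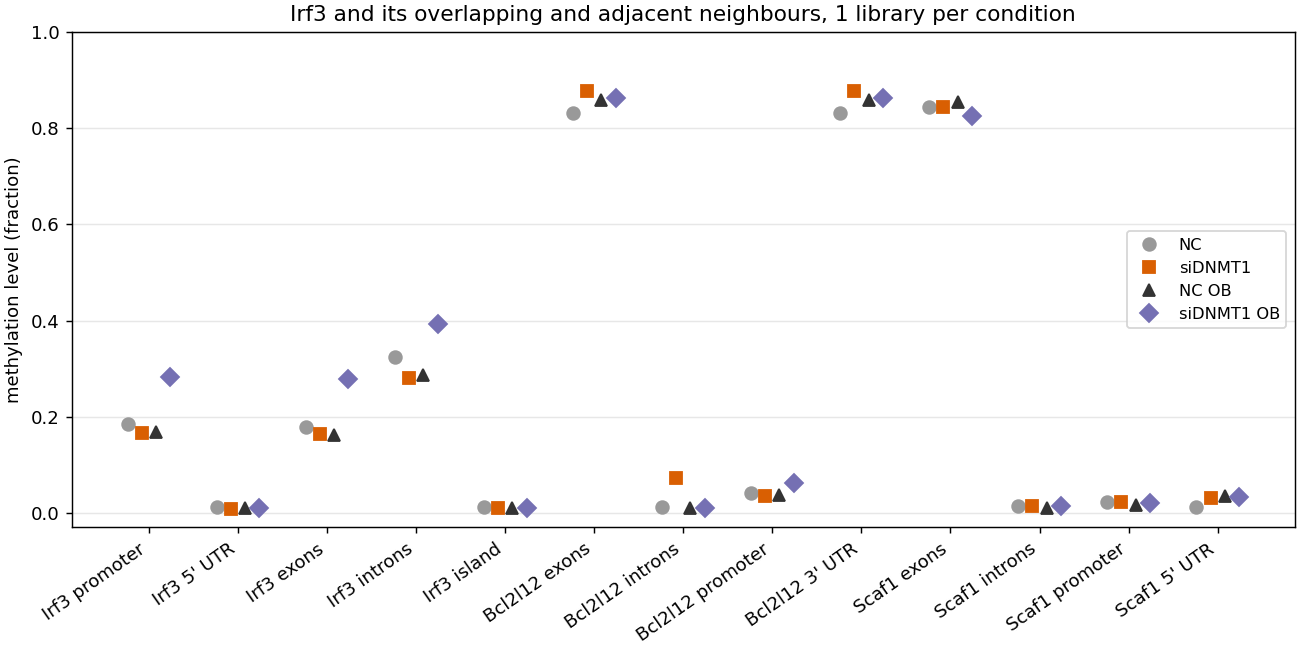
Methylation level (fraction, vertical axis) of Irf3 regions and of its overlapping and adjacent genes Bcl2l12 and Scaf1, 1 point per library. The siDNMT1 OB points stand above the others at the Irf3 promoter, exons and introns, at 0.282, 0.279 and 0.393, while the 5′ UTR and island stay near 0 in all 4 libraries.

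Irf7, the factor that interferon itself induces and that amplifies the response (ENSMUSG00000025498, minus strand, chr7:141262706-141266481), was lower at its promoter, 5′ UTR and introns than in its exons and 3′ UTR. In NC its 5′ UTR was at or above 65.0% of 5′ UTRs. Its promoter was at or above 33.1% of promoters and its introns at or above 11.7% of intron entries. Its promoter was at 0.0466 in NC, 0.0517 in siDNMT1, 0.0453 in NC OB and 0.0362 in siDNMT1 OB, and its introns at 0.0424, 0.0464, 0.0367 and 0.0340. Its 5′ UTR was at 0.0792, 0.0980, 0.116 and 0.0573, where siDNMT1 was above NC in uninduced cells and below NC by -0.0584 in OB cells. Its exons, at 0.540, 0.530, 0.547 and 0.567, and its 3′ UTR, at 0.774, 0.792, 0.772 and 0.780, differed little. Isg15, a ubiquitin-like protein that is among the earliest interferon targets (ENSMUSG00000035692, minus strand, chr4:156199424-156200818), had no gene entry. Only a shore over its end (chr4:156198056-156200056) was listed, at 0.0565, 0.0596, 0.0356 and 0.0382, lower in both OB libraries than in either uninduced library. The CpG-poor promoter sequence printed above was not measured.

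**Figure D2:**
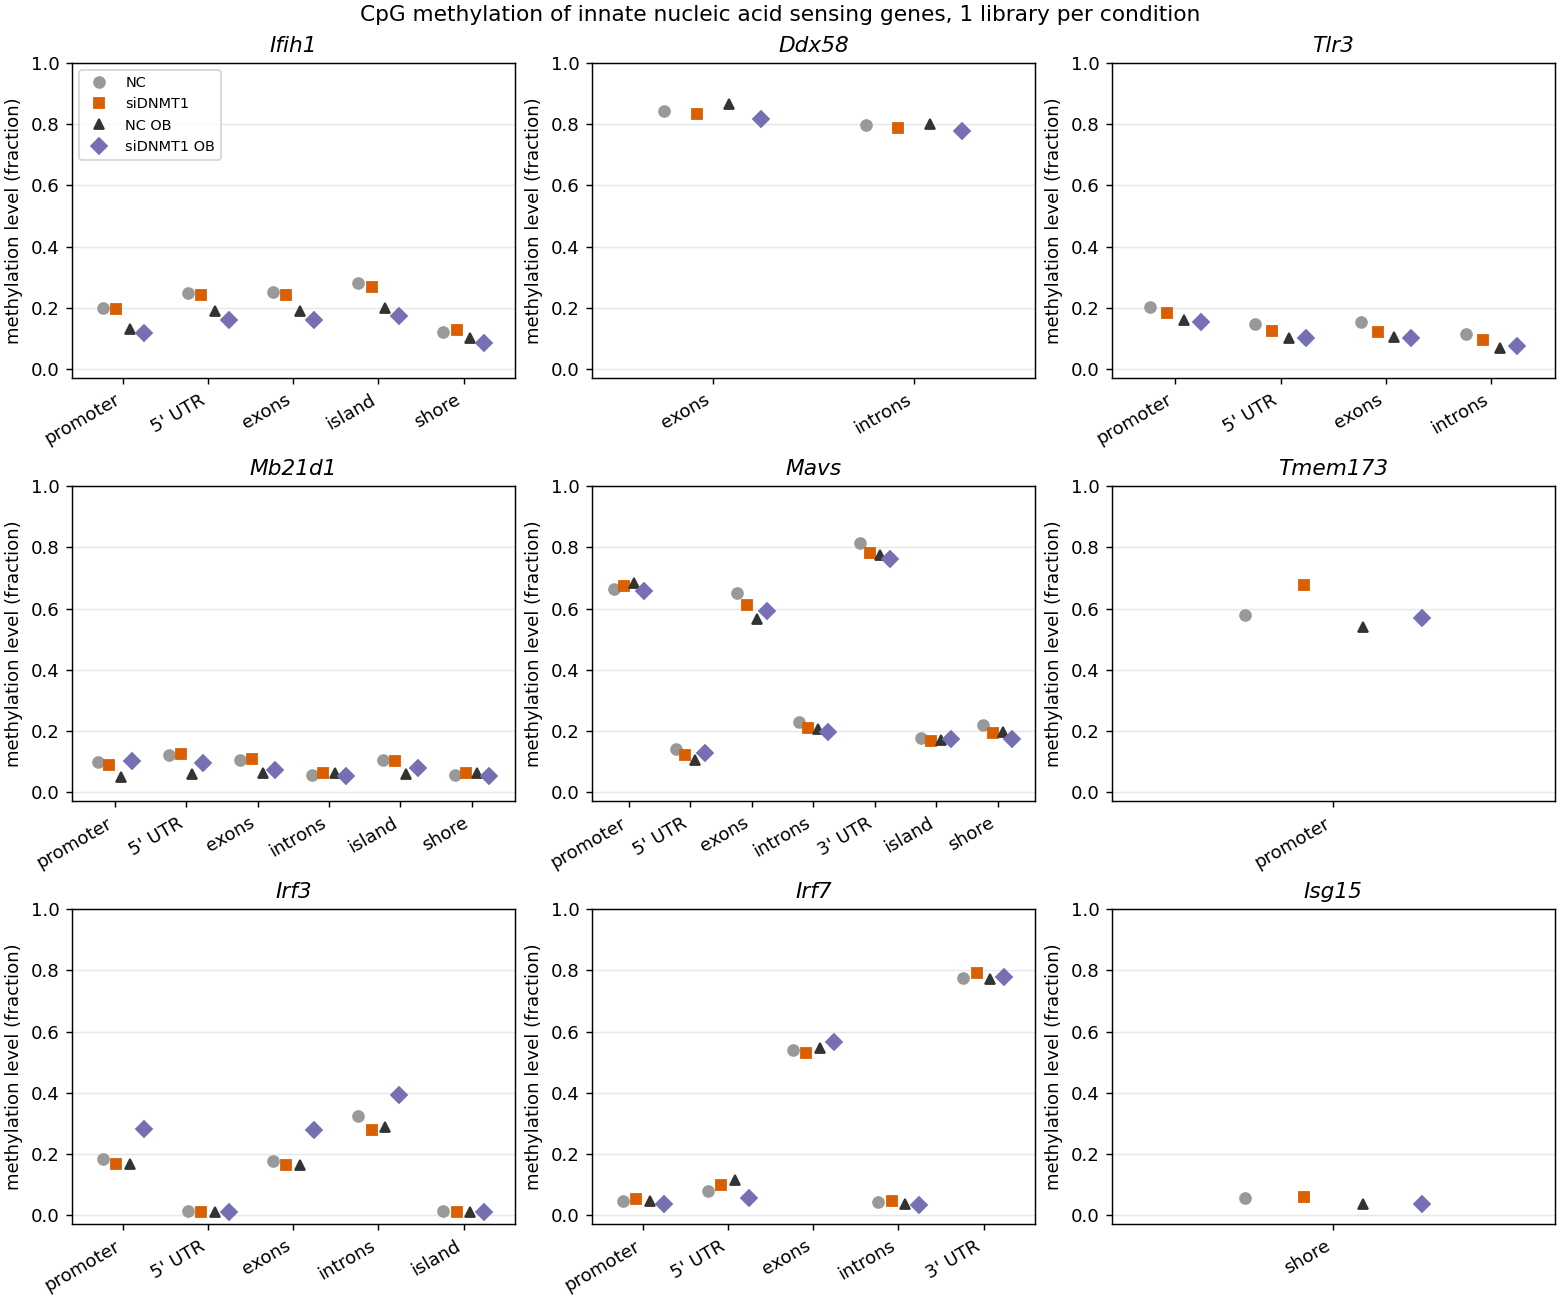
Methylation level (fraction, vertical axis) of every listed region of the 9 genes, 1 panel per gene and 1 point per library. Ifih1 and Tlr3 are lower in both OB libraries in every region, Irf3 is higher in siDNMT1 OB at its promoter, exons and introns, and Ddx58 is near 0.8 throughout.

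Across the genes, siDNMT1 minus NC differences of at least 0.1, the size counted here, were found only at Irf3. In uninduced cells 0 of the 36 member regions differed that much, where 1.46% of all regions did. In OB cells 3 of 36 did, the promoter, exons and introns of Irf3, and all were higher with siDNMT1. Over all regions 2.03% differed by that much in OB cells and 0.679% were higher. The 3 regions belong to 1 gene. The siDNMT1 level was below NC both before and after induction in 14 of 36 regions (38.9%), against 38.4% of all regions, and above NC both times in 5 (13.9%), against 17.8%. Over the 28 gene entries of the 9 genes, the median siDNMT1 minus NC difference was -0.00920 in uninduced cells, with 19 lower (67.9%) and 9 higher, against a median of -0.00158 and 55.9% lower over 76155 entries. In OB cells it was -0.000928, with 16 lower (57.1%) and 12 higher, against -0.00619 and 66.8% lower.

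**Figure D3:**
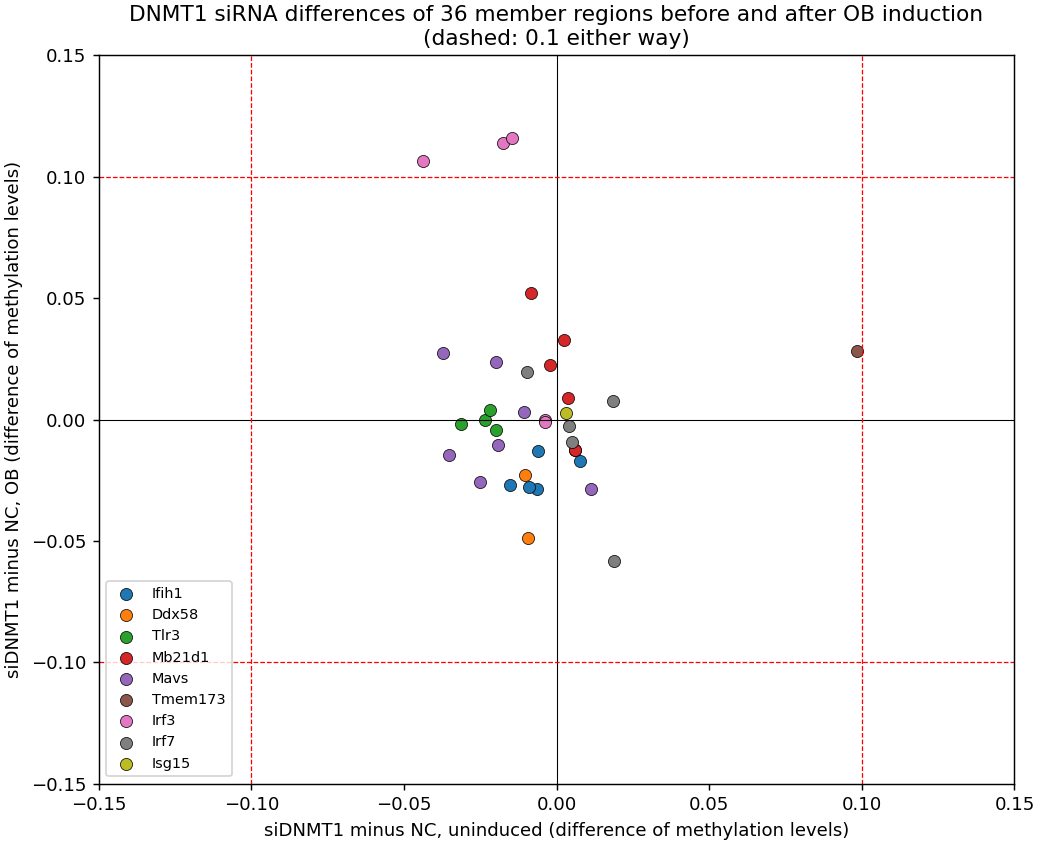
Difference in methylation level, siDNMT1 minus NC, of each of the 36 member regions in uninduced cells (horizontal axis) and in OB cells (vertical axis), with dashed lines at 0.1 either way. The 3 Irf3 points lie above the upper line, from 0.107 to 0.116, and the Tmem173 promoter lies at 0.0985 on the horizontal axis.

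Between induced and uninduced cells the member levels were mostly lower in OB. Both OB libraries were below both uninduced ones in 19 of 36 regions (52.8%), against 39.3% of all regions. Those were all 5 regions of Ifih1, all 4 of Tlr3, 3 of Mb21d1, 3 of Mavs, 2 of Irf7, and 1 each of Tmem173 and Isg15. Both OB libraries were above both uninduced ones in 1 region, the Irf7 exons, against 8.47% of all regions. No member region differed by 0.1 or more between the NC libraries, where 2.12% of all regions did. Between the siDNMT1 libraries 4 did, the Tmem173 promoter lower and 3 Irf3 regions higher, where 3.27% of all regions did. The median over the 28 gene entries was -0.0373 between the NC libraries, with 22 lower (78.6%), against -0.00339 and 61.7% lower over all entries. For the siDNMT1 pair the median was -0.0172 and 21 were lower (75%), against -0.00800 and 72.0%, so that count was near the background. The induced and uninduced pairs share libraries with the siRNA comparisons, so these values are not independent of those above.

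The wider pathway was read from 114 further genes in 7 lists by role. Of these, 73 had a promoter level in all 4 libraries and 93 any gene region, 308 regions in total. In uninduced cells 1 of the 73 promoters was lower by at least 0.1 with siDNMT1 and 0 were higher, where 0.814% and 0.67% of all promoters were. It was that of Ifngr1, a subunit of the interferon gamma receptor, at 0.742 in NC and 0.504 in siDNMT1. In OB cells the same promoter was at 0.642 in NC and 0.721 in siDNMT1, a difference of the opposite sign. In OB cells 1 promoter was lower and 0 higher, where 1.4% and 0.789% of all promoters were. It was that of Rtp4, an interferon-induced gene, at 0.333 in NC OB and 0.0238 in siDNMT1 OB, after 0.348 and 0.291 in uninduced cells. Over the 308 regions of 5 gene classes, 5 differed by 0.1 either way in uninduced cells and 7 in OB cells, against 1.54% and 2.16% of all such regions. None of them did so in the same direction in both states. The share of all gene regions that do was not computed, so this count is not read as a result about the pathway.

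By role, the promoters centred near 0 in both states. Over all promoters, 53.2% were lower with siDNMT1 in uninduced cells and 64.0% in OB cells, the background for the counts that follow. The 13 adaptor and kinase promoters had a median difference of 0.000599 in uninduced cells and 0 in OB cells. Of these, 4 were lower and 9 higher before induction, and 6 were lower and 6 higher after it. The 16 promoters of interferon-stimulated genes had medians of -0.0102 and -0.00746, with 11 and 12 lower. The 11 Irf and Stat promoters had medians of -0.00242 and -0.0131, with 6 and 8 lower. The 18 promoters of nucleases, editors and inhibitors that restrain the pathway had medians of 0.00161 and -0.00302, with 8 and 9 lower. The list of interferons, receptors and receptor kinases gave 7 promoters, all of receptors or a receptor kinase and none of an interferon. Their medians were -0.00376 and 0.00440, with 4 and 3 lower. The 6 promoters on the list of RNA sensors and cofactors had medians of 0.00966 and -0.00689, with 2 and 3 lower. That list includes Pqbp1, whose protein also serves the DNA sensor cGAS. The 2 on the list of DNA sensors and endosomal transport had medians of -0.00246 and 0.0118, with 1 lower in each state. Over all 73 the median was 5.62e-06 in uninduced cells and -0.00316 in OB cells, against -0.000713 and -0.00371 over 20152 promoters.

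**Figure D4:**
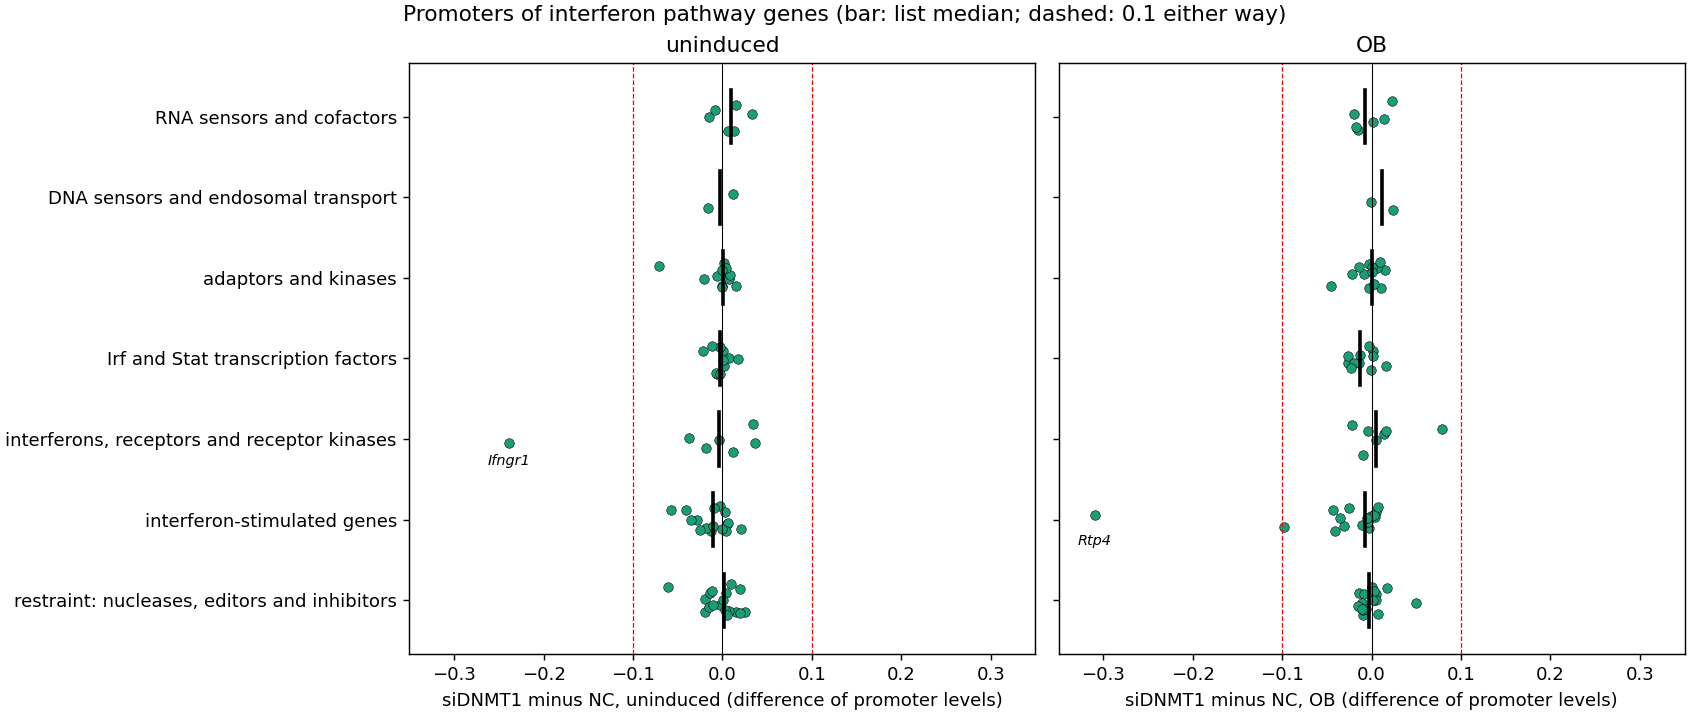
Difference in promoter methylation level, siDNMT1 minus NC, of 73 interferon pathway genes in 7 lists, in uninduced cells (left) and OB cells (right), with list medians as bars and dashed lines at 0.1 either way. Only Ifngr1, at -0.238, and Rtp4, at -0.310, lie beyond the lines.

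Regions other than promoters were chosen for naming after their values were seen. The exons of Parp9, a partner in interferon signalling, were at 0.565 in NC, 0.532 in siDNMT1, 0.538 in NC OB and 0.436 in siDNMT1 OB. Zbp1, a sensor of Z-form nucleic acid, had exons at 0.583, 0.586, 0.592 and 0.453, with a 5′ UTR entry of the same 4 values. The exons of Ikbke, a kinase of interferon regulatory factors, were at 0.472, 0.475, 0.568 and 0.447. In these 3 genes siDNMT1 OB was the lowest library, as it was at the Irf8 5′ UTR, at 0.189, 0.166, 0.129 and 0. The Rtp4 promoter and the Pqbp1 introns were also lowest there. These were all the pathway regions past 0.1 in OB cells, and each was lower with siDNMT1. Over all regions of 7 classes, 2.03% were past 0.1 in OB cells and 0.679% were higher. Regions past 0.1 only in uninduced cells had other orders. The Ifngr1 introns, at 0.700, 0.599, 0.703 and 0.721, were highest in siDNMT1 OB. The Gbp3 exons, at 0.641, 0.754, 0.772 and 0.696, were lowest in NC. The Skiv2l 5′ UTR, at 0.167, 0, 0.286 and 0.286, was lowest in siDNMT1.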

How the data were processed

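Per the submitters' processing notes, the authors used CASAVA, Trimmomatic 0.36 and Bismark 0.16.3 on mm10. They deposited, per library, the methylation fraction of each region; promoters were 2 kb. The weighting of cytosines, any coverage minimum, and the annotation behind gene entries are not given in the sources used here, and repeats were not used. Every column was mapped (0 without a sample). Differences of deposited fractions were computed with Python 3.11.15, pandas 2.3.3 and numpy 2.4.6, without pseudocount or test, and the functions were tested on simulated data. Regions needed a level in all 4 libraries. Genes were placed with GENCODE vM21 (Mb21d1, there Cgas, through a RefSeq synonym). Island starts, counted from 0, were made 1-based, and 14354 of 14354 islands then began and ended with CG in GRCm38 (pysam 0.24.0). Figures used matplotlib 3.10.9. Named were all 9 genes and each pathway gene with a promoter difference of 0.1 or the same difference in both states. Other regions named were chosen after their values were seen. Members and lists were chosen with earlier results of these data known.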

Additional observations from a re-analysis of the deposited data

Results flagged for a closer look

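The introns of Pqbp1, an X-linked gene whose protein helps cGAS sense retroviral DNA, differed by DNMT1 siRNA in opposite directions before and after induction. Their level was 0.438 in NC, 0.558 in siDNMT1, 0.475 in NC OB and 0.353 in siDNMT1 OB. The siDNMT1 minus NC difference was 0.119 in uninduced cells and -0.122 in OB cells. The change between them, -0.241, was not tested, since each condition is 1 library. The Pqbp1 promoter did not share this reversal: siDNMT1 was above NC both before and after induction, each time by less than 0.1. Of the 308 pathway regions, 1, these introns, passed 0.1 in opposite directions, and it was picked out for that. The share of all regions that do so was not computed.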

How the results depend on the processing

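Over 10 results, 52 alternative values were computed, of which 44 stayed near the reported value and 8 did not. A median was called near if it moved by less than 0.0119. Both reported medians, -0.00920 and -0.000928, are smaller in size than that, so a median could change sign and still be called near. Counts that stayed at 0 were also called near. The 44 are therefore not a measure of how stable the results are. Shares over all regions were computed only for the reported setting. The alternative counts below therefore have no background beside them. With a difference of 0.05 in place of 0.1, 1 member region was higher with siDNMT1 in uninduced cells (Tmem173 promoter, 0 at 0.1), 1 was lower in OB cells (Irf7 5′ UTR, 0 at 0.1), and pathway promoters numbered 4 lower in uninduced cells, 2 lower in OB cells and 1 higher in OB cells. At 0.2, 0 member regions were higher in OB cells, against 3. Centring each library on its class median gave 1 member region higher in uninduced cells, again Tmem173, and turned the OB median of member gene entries from -0.000928 to 0.0102. That shift is smaller than 0.0119, the median size of difference between the NC libraries. Requiring a level in only the 2 libraries compared added 1 pathway promoter higher in uninduced cells, that of Epsti1, at 0.259 in NC and 0.370 in siDNMT1. No paired analysis was possible because each condition is 1 library. Depth is unknown, so a 0.1 difference at a sparsely read region cannot be told apart from counting error.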
